A study of Mus musculus with 8 samples.

Results

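The Hox genes encode homeodomain transcription factors and lie in 4 clusters, Hoxa on chromosome 6, Hoxb on chromosome 11, Hoxc on chromosome 15 and Hoxd on chromosome 2. The 38 members described here were taken by name, 10 each from Hoxa and Hoxb and 9 each from Hoxc and Hoxd, out of 21887 protein-coding genes compared in the same way. Each member was represented by its gene body extended by 2 kb on both sides (build mm10, gene table GRCm38.p6), and open chromatin by the peaks that overlap this window in 8 ATAC-seq libraries. In ATAC-seq the Tn5 transposase inserts sequencing adapters into accessible DNA. All libraries came from C57Bl/6J mouse brain, with 50000 nuclei per aliquot. Fn14 KO mice, which lack the receptor for the cytokine TWEAK, and their WT littermates were untreated. Both genotypes gave coronal sections of flash-frozen brain with cortex, hippocampus and dorsal lateral geniculate nucleus (dLGN) at postnatal day 27, with 2 libraries each. The other mice, with no Fn14 allele named in their labels, were fed either chow, PLX or control, starting at postnatal day 20, and their dLGN was microdissected at postnatal day 32, again with 2 libraries each. The labels spell the compound PLX5562 and give the removal of microglia as its purpose. They do not say whether libraries of a group came from separate mice, how many mice were pooled or which cells lack Fn14.

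Along each cluster the Hox genes are ordered by paralog number, and this order matches where along the body axis of the embryo they are used. Low numbers pattern the hindbrain and high numbers the trunk, the limbs and the tail end. Cortex, hippocampus and thalamus arise in front of the Hox domain, and there the clusters are known as broad domains of Polycomb repression. In this account paralogs 1 to 4 are called anterior (11 genes), 5 to 8 central (11 genes) and 9 to 13 posterior (16 genes).

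The deposited lists held 248989 to 299822 peaks, which became 192168 to 218214 regions once overlapping peaks were joined. Read depth is unknown, and the −log10 p and fold quoted here are the authors' values for each peak. The −log10 p of the region in place 50000 of a list ran from 13.4 in WT 2 to 33.0 in control chow 1, so the same −log10 p stands for a different place in different lists. Over the body of Tnfrsf12a, the gene of Fn14, neither KO library had a region and the 6 others had 1 each (−log10 p 8.02 to 25.3). Cortical and hippocampal markers (7 of 7) and thalamic markers (6 of 6) had regions in all 8 libraries. Summed over the cortical list there were 65 to 77 regions in section libraries and 49 to 62 in dLGN libraries, and over the thalamic list 185 to 254 and 201 to 223, which overlap. Of 7 hindbrain and spinal cord markers, 5 had regions in all 8 libraries, among them Egr2, while Barhl1 had a region in 4.

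Few regions lay at Hox genes, and nearly all of them were weak. The windows of the 38 genes held 16 and 11 distinct regions in the KO libraries, 14 and 13 in WT, 11 and 15 in PLX chow and 24 and 19 in control chow, a mean of 15.4 ± 4.37 (SD over 8 libraries). The control chow libraries were the highest. In bulk tissue, fewer nuclei with an open site and a less open site in each nucleus cannot be told apart. Between 10 (PLX chow 1) and 20 (control chow 1) of the 38 genes had a region, a mean of 37.5%, against 78.2% of all protein-coding genes. Among the 50000 strongest regions of each library, 2 to 6 lay at Hox genes and reached 2 to 5 members, whereas 64.6% to 68.4% of protein-coding genes were reached. Where a Hox gene had a region, the median −log10 p of the strongest was 6.34 to 14.5 per library and the median fold 2.92 to 4.29. The same medians over all genes with a region were 71.3 to 160 and 8.73 to 12.7.

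By member, 16 of 38 Hox genes (42.1%) had no deposited region in any of the 8 libraries, 7 (18.4%) had one in all 8, and 15 had one in some. Over all protein-coding genes these shares were 16.7% without and 73.3% with a region in all 8. Hox genes are short, with a median length of 3722 bp against 17169 bp. Among genes of up to 10 kb, 14 of 32 Hox genes (43.8%) and 35.6% of 7926 protein-coding genes had no region, so on this count the Hox genes stood close to other short genes. A region in all 8 libraries was found at 5 of these 32 Hox genes (15.6%) and at 48.9% of the short protein-coding genes. The genes with a region in all 8 libraries were Hoxa3, Hoxa9, Hoxb5, Hoxb6, Hoxb8, Hoxd1 and Hoxd3. Those with none were Hoxa2, Hoxa7, Hoxb1, Hoxb2, Hoxb3, Hoxb4, Hoxb7, Hoxb13, Hoxc4, Hoxc8, Hoxc9, Hoxc10, Hoxc11, Hoxc12, Hoxc13 and Hoxd4.

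**Figure D1:**
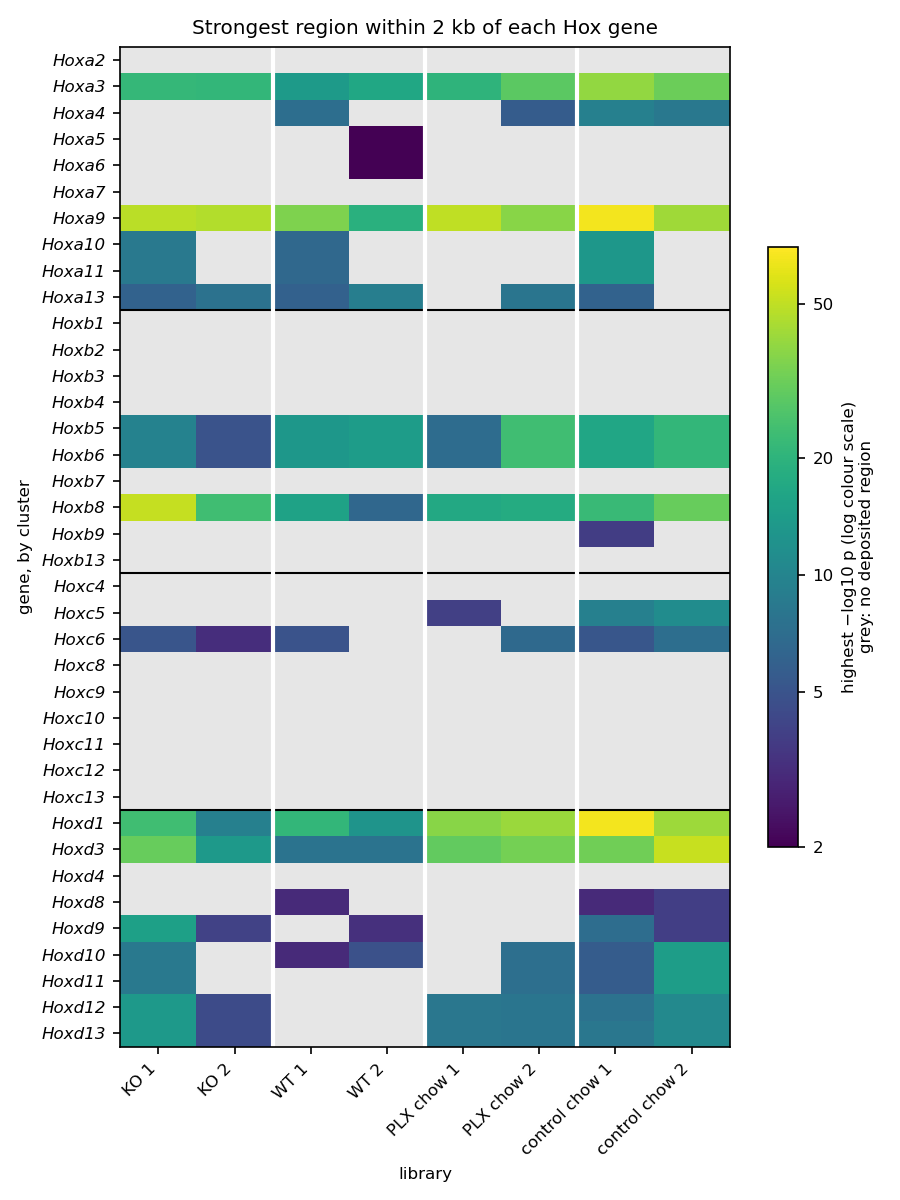
Strongest region at each of the 38 Hox genes (rows, by cluster) in each of the 8 libraries (columns), coloured by the authors' −log10 p on a log colour scale; grey cells had no deposited region within 2 kb of the gene. Hoxa3, Hoxa9, Hoxb5, Hoxb6, Hoxb8, Hoxd1 and Hoxd3 are coloured in all 8 columns, and Hoxb5 with Hoxb6, which share their region, show the same values.

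The clusters differed in how many members were without a region: 2 of 10 in Hoxa, 6 of 10 in Hoxb, 7 of 9 in Hoxc and 1 of 9 in Hoxd. By position they were 7 of 11 anterior, 3 of 11 central and 6 of 16 posterior genes. Neighbouring windows overlap, and some gene models are long. That of Hoxa3 (44009 bp) spans Hoxa4, Hoxa5 and Hoxa6, that of Hoxd3 (36279 bp) spans Hoxd4, and that of Hoxb3 (40830 bp) spans Hoxb4. A region can therefore count for several members. Merging over libraries gave 38 separate regions in the 4 clusters, numbered here along each chromosome: 12 in Hoxa, 4 in Hoxb, 3 in Hoxc and 19 in Hoxd. Of these, 7 were present in all 8 libraries, 3 in 7, 17 in 2 to 6 and 11 in a single library, and 25 overlapped a member's gene body.

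**Figure D2:**
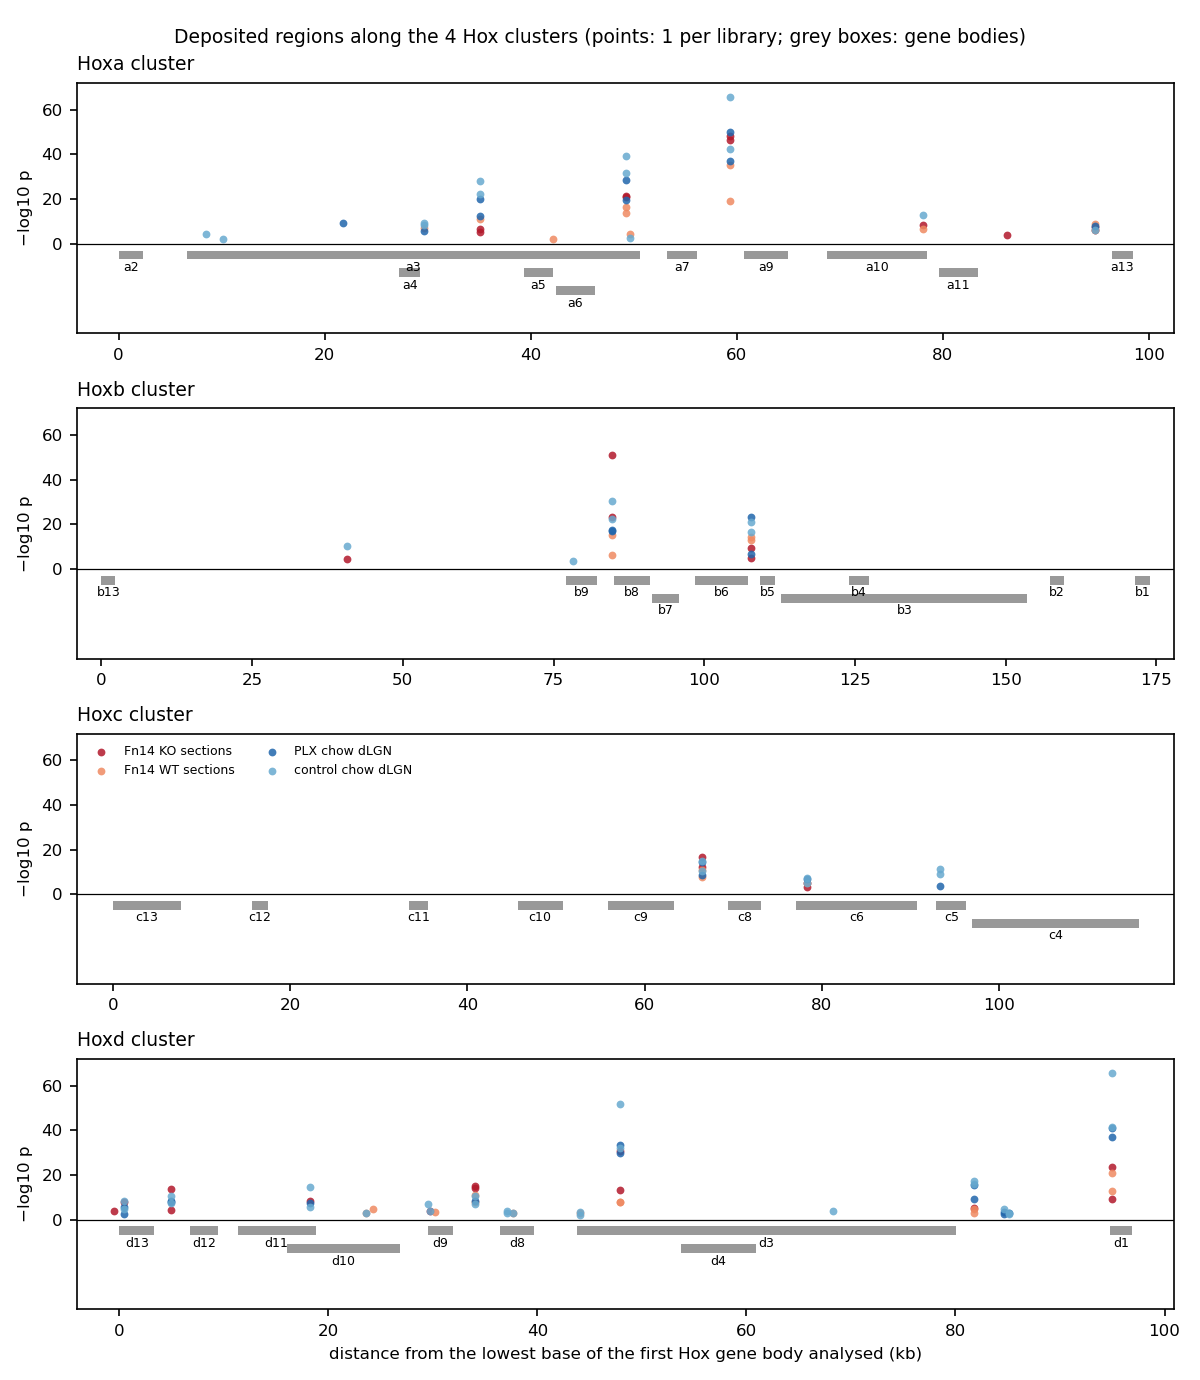
Regions along the 4 Hox clusters: each point is a region in 1 library, placed by its distance in kb from the lowest base of the first member analysed and by its −log10 p, with gene bodies as grey boxes on staggered rows (a2 stands for Hoxa2, and so on). The points cluster at few positions, such as near Hoxa9, Hoxb8, Hoxd3 and Hoxd1, while most of the Hoxc cluster and the 40830 bp of Hoxb3 hold none.

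Promoters were examined where RefSeq windows were at hand: 24 windows of 300 bp, from 250 bp before to 50 bp after the start, for 22 of the 38 genes. Only the window of Hoxd1 overlapped a region in all 8 libraries. Hoxd10 had one in 2 libraries (WT 1, −log10 p 3.06, and control chow 1, 3.04), Hoxd9 in 1 (control chow 1, 7.14) and Hoxa5 in 1 (WT 2, 2.004). The other 20 windows (83.3%) had none, against 32.01% of the 21263 windows of all protein-coding genes. Hox promoters had a median GC content of 57.7% and a median of 14.5 CpG, against 56.3% and 13 over all windows. Among windows with at least 55% GC and an observed to expected CpG ratio of at least 0.6, called CpG-rich here (a class set after the data were seen), 92.4% of 8650 overlapped a region in all 8 libraries and 2.53% in none. Of the 9 CpG-rich Hox windows, 1 overlapped a region in all 8 libraries and 6 in none. Over libraries the share with a region was 94.1% to 96.1% for all CpG-rich windows and 11.1% to 22.2% for the Hox windows.

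The following windows are shown because they run from the promoter with a region in every library to ones with no region; those of Hoxd1, Hoxd10, Hoxd13 and Hoxa13 are CpG-rich as defined here, and those of Hoxd9 and Hoxb4 are not. They are from RefSeq (GRCm38.p6), are written 5′ to 3′ on the strand of the gene, and have each CpG in capitals. Hoxd1 has 29 CpG and a region in all 8 libraries, Hoxd10 has 22 and a region in 2, and Hoxd9 has 20 and a region in 1. Hoxd13 (74.3% GC, 37 CpG), Hoxa13 (81% GC, 45 CpG) and Hoxb4 (58% GC, 14 CpG) had none.
Hoxd1 (chr2:74762730-74763029, plus strand): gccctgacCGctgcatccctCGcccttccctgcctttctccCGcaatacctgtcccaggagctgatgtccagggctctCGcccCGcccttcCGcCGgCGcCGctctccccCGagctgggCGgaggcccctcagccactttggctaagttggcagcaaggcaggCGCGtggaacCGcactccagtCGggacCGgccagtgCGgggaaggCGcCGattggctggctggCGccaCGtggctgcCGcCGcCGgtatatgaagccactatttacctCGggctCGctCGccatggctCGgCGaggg
Hoxd10 (chr2:74691641-74691940, plus strand): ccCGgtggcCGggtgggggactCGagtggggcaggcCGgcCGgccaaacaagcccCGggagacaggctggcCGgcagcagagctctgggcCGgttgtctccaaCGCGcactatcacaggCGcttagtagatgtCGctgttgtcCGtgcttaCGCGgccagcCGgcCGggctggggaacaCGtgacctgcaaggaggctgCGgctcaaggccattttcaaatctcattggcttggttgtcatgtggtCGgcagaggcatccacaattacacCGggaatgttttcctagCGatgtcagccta
Hoxd9 (chr2:74697513-74697812, plus strand): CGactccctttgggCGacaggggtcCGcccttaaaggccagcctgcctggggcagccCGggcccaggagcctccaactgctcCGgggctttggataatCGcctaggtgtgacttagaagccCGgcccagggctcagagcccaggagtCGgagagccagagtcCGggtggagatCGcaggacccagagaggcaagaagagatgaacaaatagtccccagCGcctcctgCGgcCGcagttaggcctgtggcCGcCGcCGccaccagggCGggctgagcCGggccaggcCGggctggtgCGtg
Hoxd13 (chr2:74667975-74668274, plus strand): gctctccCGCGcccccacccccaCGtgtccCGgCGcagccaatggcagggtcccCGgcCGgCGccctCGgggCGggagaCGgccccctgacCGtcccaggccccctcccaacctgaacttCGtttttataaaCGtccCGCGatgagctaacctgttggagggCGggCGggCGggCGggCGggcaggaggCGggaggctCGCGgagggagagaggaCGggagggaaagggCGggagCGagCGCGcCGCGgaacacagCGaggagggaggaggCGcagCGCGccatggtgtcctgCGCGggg
Hoxa13 (chr6:52260831-52261130, minus strand): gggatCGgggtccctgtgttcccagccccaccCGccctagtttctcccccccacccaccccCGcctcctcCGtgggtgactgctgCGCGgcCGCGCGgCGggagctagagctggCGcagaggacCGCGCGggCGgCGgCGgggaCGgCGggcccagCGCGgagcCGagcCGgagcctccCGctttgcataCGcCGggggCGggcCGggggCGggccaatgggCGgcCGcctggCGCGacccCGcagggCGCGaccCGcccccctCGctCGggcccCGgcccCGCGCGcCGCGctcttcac
Hoxb4 (chr11:96318017-96318316, plus strand): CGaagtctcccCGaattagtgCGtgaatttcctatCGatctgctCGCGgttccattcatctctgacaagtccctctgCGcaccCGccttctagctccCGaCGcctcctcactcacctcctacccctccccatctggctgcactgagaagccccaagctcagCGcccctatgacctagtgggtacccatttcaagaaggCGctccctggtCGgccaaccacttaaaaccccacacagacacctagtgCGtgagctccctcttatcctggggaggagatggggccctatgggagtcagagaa

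The number of CpG did not order these windows by how many libraries had a region, since both windows with more CpG than Hoxd1 had no region. Motifs were searched on both strands. TAATTA, the core bound by many homeodomains, was in 2 of 24 Hox windows (8.33%), both of Hoxd11, and in 4.53% of all windows. TGATTNAT, a joint Hox and Pbx motif, was in 2 (Hoxa2 and the second Hoxd11 window, 8.33%) and in 2.75% of all. The retinoic acid response repeat, AGGTCA written again after 5 bases, was in none of them and in 1 window of the whole table. A match is a match of letters and not a measured site.

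**Figure D3:**
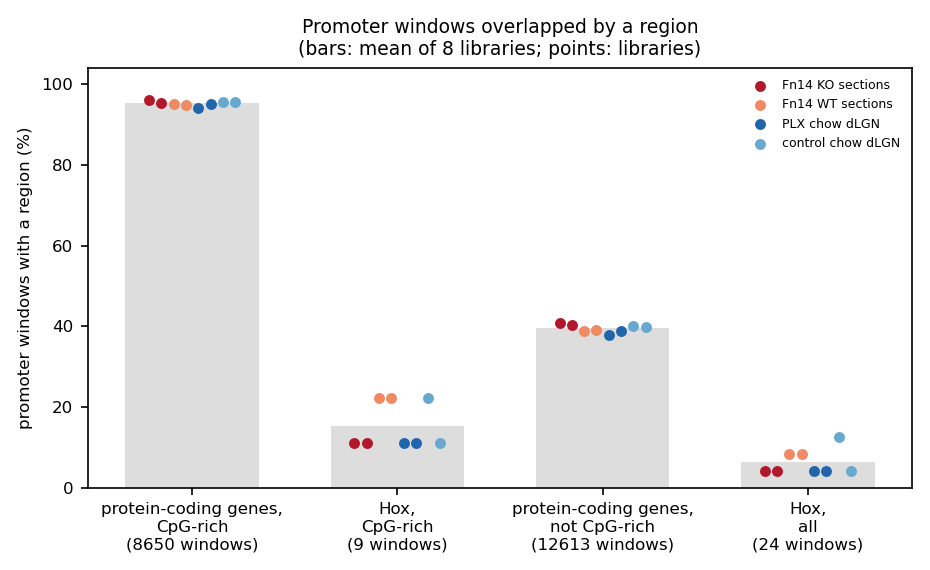
Share of 300 bp promoter windows overlapped by a region, with bars for the mean of the 8 libraries and points for the libraries. CpG-rich windows of all protein-coding genes lie between 94.1% and 96.1% and the 9 CpG-rich Hox windows between 11.1% and 22.2%, while all 24 Hox windows lie between 4.17% and 12.5%.

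Gene ends were then examined for all 38 members. Within 500 bp of either end of the gene body, 4 (KO 2) to 10 (control chow 1) of the 38 Hox genes had a region, against 63.1% to 65.2% of all protein-coding genes. Hoxb6, Hoxb8 and Hoxd1 were among them in all 8 libraries. These windows were also chosen after the data were seen.

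In the Hoxa cluster the strongest region lay between Hoxa7 and Hoxa9 (chr6:52221308-52222263), 834 bp from the lower end of Hoxa9. Hoxa9 patterns the posterior trunk and acts in blood progenitors. The −log10 p was 48.2 and 46.5 in KO, 35.2 and 19.2 in WT, 50.2 and 37.2 in PLX chow and 65.9 and 42.3 in control chow, with folds of 5.67 to 10.0. It ranked within the first 36973 regions of every list and was the only Hox region among the 50000 strongest of all 8 libraries. Because Hoxa9 is read from the minus strand, this region lies beyond the end of the gene and not at its start, and its promoter window had no region. Hoxa3, which patterns the throat region and hindbrain, had its strongest region inside the long gene model (chr6:52211429-52211906) in 7 libraries. Its −log10 p was 21.2 and 20.9 in KO, 13.9 and 16.6 in WT, 19.5 and 28.7 in PLX chow and 39.3 and 31.5 in control chow. In PLX chow 1 another region of the same gene model (chr6:52197360-52197599) was slightly stronger, at 20.3. The order of Hoxa9 over Hoxa3 held in all 8 libraries. At Hoxa13, which patterns the limb ends and genital tubercle, a region 1460 bp away (chr6:52257012-52257393) was seen in 6 libraries at 6.04 to 9.09. Hoxa10 and Hoxa11 shared a region in 3 libraries (6.61 to 13.1), Hoxa4 had one in 4 (5.64 to 9.36), and Hoxa5 and Hoxa6 shared one in WT 2 (2.004).

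In the Hoxb cluster only 2 regions recurred in every library, and the genes from Hoxb4 to Hoxb1 as well as Hoxb7 and Hoxb13 had none. The first lay 287 bp below Hoxb8 (chr11:96278830-96279114), a central gene that is also known for marking a lineage of microglia progenitors. Its −log10 p was 51.0 and 23.4 in KO, 15.4 and 6.53 in WT, 17.1 and 17.7 in PLX chow and 22.4 and 30.7 in control chow. KO 1 was the highest and WT 2 the lowest. The second lay between Hoxb6 and Hoxb5 (chr11:96301809-96302222), over the antisense gene Hoxb5os, and counted for both. It reached 9.64 and 5.00 in KO, 13.2 and 14.2 in WT, 6.997 and 23.4 in PLX chow and 16.4 and 21.0 in control chow. The PLX chow pair spanned nearly the whole range of the 8 libraries there. Hoxb9 had a region in control chow 1 alone (3.83).

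The Hoxc cluster had the most members without a region, 7 of 9. Among its 9 genes only Hoxc6 and Hoxc5 had regions: Hoxc6 in 6 libraries at 3.18 to 7.22, and Hoxc5 in 3 at 3.91 to 11.3. None of these regions, in any library, was among the 50000 strongest. A region found in all 8 libraries lay between Hoxc9 and Hoxc8 (chr15:102987422-102987758), 2781 bp from Hoxc8 and so outside every window, at 7.77 (WT 2) to 16.5 (KO 1). The 5 genes from Hoxc9 to Hoxc13, which pattern the posterior trunk and the hair and nail matrix, had none in 8 libraries.

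The Hoxd cluster held 19 of the 38 regions. Its strongest one covered the start of Hoxd1 (chr2:74762668-74763686), a gene of the anterior end of the cluster that is used in pain-sensing neurons, and also overlaps the noncoding gene Haglr. The −log10 p was 23.7 and 9.47 in KO, 21.0 and 12.7 in WT, 37.1 and 41.1 in PLX chow and 65.9 and 41.4 in control chow. All 4 dLGN libraries were above all 4 section libraries on this scale, while by rank WT 1 (38470) stood just ahead of PLX chow 1 (38752). At Hoxd3, an anterior gene of neck vertebrae and hindbrain, the strongest region lay inside the gene model and over the antisense gene Hoxd3os1 (chr2:74715797-74716426). It had 30.6 and 13.4 in KO, 7.80 and 7.77 in WT, 29.7 and 33.3 in PLX chow and 32.2 and 51.9 in control chow. The WT pair was the lowest of the groups. Hoxd4, which lies inside the Hoxd3 model, had no region within 2 kb. Hoxd12 and Hoxd13, the genes of digits and hind end, shared a region (chr2:74672997-74673304) in 6 libraries at 4.51 to 13.6, with none in either WT list. Hoxd13 had a further region in its gene body (chr2:74668321-74668981), just beyond the CpG-rich promoter window shown above, in 5 libraries at 2.63 to 8.23. Hoxd10 and Hoxd11 shared a region in 4 libraries (5.63 to 14.5). Hoxd9 had regions in 5 libraries (3.29 to 15.1) and Hoxd8 in 3 (3.04 to 3.88), at places that differed between libraries. The 15.1, in KO 1, was of a region between Hoxd9 and Hoxd8 (chr2:74702113-74702514).

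**Figure D4:**
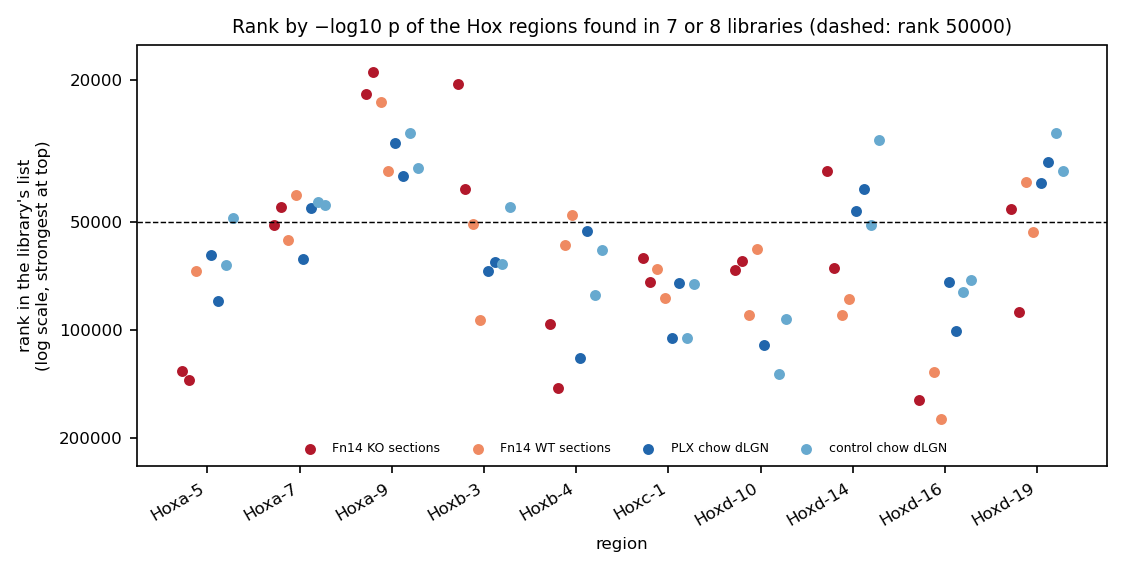
Place of the 10 Hox regions found in 7 or 8 libraries within each library's list, ordered by −log10 p (vertical axis, log scale, strongest at the top; dashed line at rank 50000; colours give the groups). The region below Hoxa9 (Hoxa-9) lies above the dashed line in all 8 libraries, while those at Hoxc-1, Hoxd-10 and Hoxd-16 lie below it in each library that has them.

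The clusters also carry microRNA genes, which pair with many Hox messages and hold their levels down. None of the 5 (Mir10a, Mir10b, Mir196a-1, Mir196a-2 and Mir196b) had a deposited region within 2 kb in any library. Their 5′ mature sequences (RefSeq, GRCm38.p6; seed, bases 2 to 8, in capitals) are shown because they form 2 seed families spread over the 4 clusters, ACCCUGU in miR-10 and AGGUAGU in miR-196.
mmu-miR-10a-5p (chr11:96317186-96317208, plus strand): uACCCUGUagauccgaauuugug
mmu-miR-10b-5p (chr2:74726074-74726096, plus strand): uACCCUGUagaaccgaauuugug
mmu-miR-196a-5p from Mir196a-1 (chr11:96265187-96265208, plus strand): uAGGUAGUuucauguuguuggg
mmu-miR-196a-5p from Mir196a-2 (chr15:102973365-102973386, plus strand): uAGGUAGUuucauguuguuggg
mmu-miR-196b-5p (chr6:52230129-52230150, minus strand): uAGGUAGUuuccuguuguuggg

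The clusters were then set beside the 100 kb on each side. Regions covered 1.69 ± 0.482% of Hoxa, 0.369 ± 0.117% of Hoxb, 0.417 ± 0.155% of Hoxc and 2.54 ± 1.08% of Hoxd (mean ± SD over 8 libraries), and 0.733% to 2.52% of the flanks. On average Hoxb and Hoxc were covered less than either flank and Hoxa lay between its flanks. The mean of Hoxd was slightly above its upper flank (2.52 ± 0.242%). By library, Hoxd was above that flank only in PLX chow 2, control chow 1 (3.95%) and control chow 2 (4.19%). Hoxc was above its lower flank in KO 2, WT 1 and WT 2, where that flank held no region. The highest −log10 p of a library was 12.7 to 65.9 within Hoxd, 211 to 652 on its lower side and 88.0 to 339 on its upper side, so there both flanks were above the cluster. In the other clusters the ranges overlapped with at least 1 flank. Within Hoxa it was 19.2 to 65.9, against 60.4 to 152 on the lower and 17.0 to 97.0 on the upper side. Compared within each library, the lower flank of Hoxa was above the cluster in all 8. Within Hoxb it was 14.2 to 51.0, against 7.77 to 28.0 and 10.5 to 78.8. Within Hoxc it was 7.77 to 16.5, against 10.3 to 38.6 (in libraries with a region there) and 17.0 to 39.0. The lower flank of Hoxd holds Lnpk, a gene of the endoplasmic reticulum with a median −log10 p of 376.

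**Figure D5:**
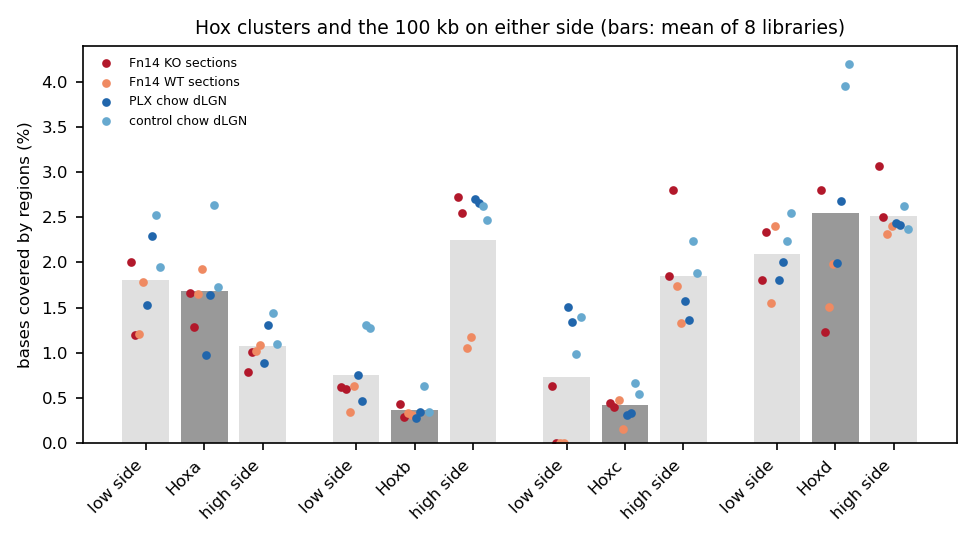
Share of bases covered by regions in each Hox cluster (dark bars) and in the 100 kb on its lower and upper side (light bars); bars are means of 8 libraries and points the libraries, coloured by group. Hoxb (mean 0.369%) and Hoxc (0.417%) are the least covered, and the 2 control chow libraries are the highest in Hoxd.

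The first comparison asked how Hox chromatin differs without Fn14. Since −log10 p depends on depth, each list was cut to 192168 regions, and the rank of the strongest region (rank 1 being the strongest) was compared. A gene was called stronger in a group when both of its libraries ranked better than both of the other. By this rule 5 of the 18 Hox genes with a region in at least 1 of these 4 cut lists were stronger in KO (Hoxa9, Hoxb8, Hoxd3, Hoxd12 and Hoxd13), where 23.1% of all protein-coding genes tested were. Another 2 of 18, Hoxb5 and Hoxb6, were stronger in WT, where 19.3% of all genes were. These shares, 27.8% and 11.1%, stood near the background of this ranking, and the 7 genes rest on 5 regions. With regions ranked by fold the same 7 genes were called, but the background moved. It was then 14.2% of all genes in KO, below the Hox share, and 27.9% in WT, above it. A 2 against 2 comparison has a smallest exact permutation p of 0.333, so none can pass 0.05.

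For Hoxb8 the ranks were 20514 and 40196 in KO and 50370 and 93457 in WT. Hoxd3 ranked 35875 and 67043 in KO and 90761 and 81696 in WT. At both genes KO 1 was the strongest of these 4 libraries. Hoxa9 ranked 21907 and 19033 in KO and 22980 and 35947 in WT, so KO 1 and WT 1 were close. Hoxd12 and Hoxd13 ranked 73766 and 157948 in KO through their shared region, with no region in either WT list. In the opposite direction the region shared by Hoxb5 and Hoxb6 ranked 96307 and 144928 in KO and 57876 and 47726 in WT. With the 38 regions in place of gene windows, 4 of 26 were stronger in KO (15.4%; all regions 12.9%) and 1 in WT (3.85%; all regions 11.3%), the same 5 regions. Counting regions among the 50000 strongest, 1 of 7 was higher in KO (Hoxb8; all genes 6%) and 0 in WT (4.82%). With gene bodies not extended, Hoxd3 alone of 10 remained called (stronger in KO, all genes 22.5%), and with 50000 regions per list Hoxa9 and Hoxb8 of 7 (22.4%). Leaving out a library makes the rule easier to meet for all genes. Without KO 2, 8 of 18 Hox genes were stronger in KO (all genes 43.1%) and 3 in WT (32.3%). Without WT 2, 7 of 18 were stronger in KO (all genes 34.4%) and 8 in WT (33%).

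The second comparison asked how PLX chow changes Hox chromatin in the dLGN. None of 20 Hox genes was stronger in PLX chow, where 9.87% of all genes were, and 4 (20%) were stronger in control chow, where 19.3% were. The 4 were Hoxa3, Hoxa4, Hoxc5 and Hoxd9. The share in control chow thus stood at the background. Hoxa3 ranked 61626 and 45614 in PLX chow and 43892 and 44581 in control chow, so PLX chow 2 was close to both control chow libraries. Hoxa4, an anterior gene, had a region in PLX chow 2 (136525) and in both control chow libraries (113920 and 109546). Hoxc5, a central gene of the neck and forelimb level, ranked 164341 in PLX chow 1 and 112731 and 89764 in control chow. Hoxd9 ranked 132283 and 169142 in control chow and had no region within its window in PLX chow. These values came from regions over the gene body, at chr2:74697675-74697848 in control chow 1 (−log10 p 7.14) and at chr2:74697905-74698109 in control chow 2 (3.88). Hoxd9 also remained called with gene bodies not extended. A region at the edge of its window (chr2:74702113-74702514) did not count for Hoxd9 in PLX chow 1, where it ranked 109999. This region ranked 132284 and 93345 in control chow and was absent from PLX chow 2, so the call depends on where the window ends. By regions, 3 of 29 were stronger in control chow (10.3%; all regions 11.3%) and 0 in PLX chow (all regions 10.9%). Counting regions among the 50000 strongest, 0 of 5 differed (all genes 2.41% higher in PLX chow and 2.6% in control chow).

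Other measures moved with the same groups. PLX chow lists held 248989 and 264136 peaks and control chow lists 285771 and 267377. After all lists were cut to 192168 regions, Hox windows held 11 and 15 regions in PLX chow and 19 and 18 in control chow. These ranges did not overlap. This measure was chosen after the data were seen and was made for Hox windows only. Whether it is particular to Hox genes was not tested. By the number of deposited regions in the uncut lists, 3 of 20 Hox genes were higher in control chow (all genes 11.2%). By that measure 0 were higher in PLX chow (all genes 4.17%). In the uncut lists the 6 microglial marker genes held 18 and 19 regions in PLX chow and 26 and 27 in control chow. This was not particular to microglial genes. The 9 Hox cofactor genes held 155 to 172 and 185 to 201, and the 6 thalamic markers 201 to 205 and 220 to 223. The cortical markers (49 to 62 and 51 to 52) and the Polycomb genes (85, and 84 to 90) overlapped between the chows. The part of list length and of microglial nuclei in the Hox values was not tested. Stronger in control chow was 1 gene (Hoxa3) of 5 with 50000 regions per list (all genes 19.5%) and of 14 with 100000 (19.4%), and 9 of 20 with the replicate number as a block (28.2%). Stronger in control chow were 5 of 20 without PLX chow 1 (all genes 30.5%), 11 of 20 without PLX chow 2 (51.8%), 12 of 17 without control chow 1 (35.5%) and 9 of 19 without control chow 2 (35.8%). Stronger in PLX chow were 3 without PLX chow 1 (all genes 36.5%), 3 without control chow 2 (22.2%) and 0 in the others (all genes 9.3% to 22.1%).

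The third comparison set the 4 dLGN libraries against the 4 section libraries. Tissue, age, chow and experiment differ together here and cannot be told apart. None of 20 Hox genes was stronger in the dLGN, where 13.1% of all genes were, and none in sections, where 26.8% were. With 70 splits the smallest 2-sided exact permutation p is 0.0286. Of 18153 genes, 7240 had a p under 0.05 and 0 an adjusted p under 0.05, the smallest adjusted p being 0.0716, and 0 Hox genes had a p under 0.05. Hoxd1 came nearest, with a mean rank of 34106 in the dLGN and 56670 in sections (exact permutation p = 0.0571, adjusted p = 0.117). For Hoxa13 the mean was 160149 in the dLGN and 107398 in sections (exact permutation p = 0.0857, adjusted p = 0.156). Counts of regions among the 50000 strongest separated 0 of 7 (all genes 5.43% higher in the dLGN and 6.03% in sections). When a library was left out, few of the 20 Hox genes were called. Hoxd1 was stronger in the dLGN without PLX chow 1 (all genes 14.9%) or without WT 1 (15.3%). Hoxa9 was stronger in sections without WT 2 (all genes 32.2%). Without PLX chow 2, Hoxc5 was stronger in the dLGN (all genes 14.7%) and Hoxa13 in sections (31%). Hoxd3, Hoxd12 and Hoxd13 were stronger in the dLGN without KO 1 (all genes 14.3%). With only WT sections and control chow dLGN, 6 of 20 Hox genes were stronger in the dLGN, where 23.1% of all genes were, and 3 in sections, where 41.5% were.

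At the level of regions, 2 of 35 did not overlap between tissues. A region within Haglr, 1538 bp above Hoxd3 (chr2:74749809-74750246), reached a −log10 p of 15.6, 9.16, 17.2 and 15.9 in dLGN libraries. In sections it had 5.10 in KO 1, 4.97 in WT 1 and 2.83 in WT 2, and none in KO 2. A region between Hoxd9 and Hoxd8 (chr2:74702113-74702514) had 15.1, 14.1, 7.80 and 11.2 in sections and 8.17, 7.14 and 10.6 in the dLGN, with none in PLX chow 2. The −log10 p of the second overlapped between tissues, while its ranks, 59421 to 90760 in sections and 93345 or worse in the dLGN, did not. Both had the smallest exact permutation p, 0.0286, and an adjusted p of 0.129 over 405334 regions. Each direction thus held 2.86% of the Hox regions, against 12.2% of all regions for the dLGN and 9.92% for sections. Further, 4 Hox regions were in 2 or more dLGN and no section library, 1 in Hoxc5, 1 in Hoxd8 and 2 in Haglr, and 0 showed the reverse. That is 10.5% and 0% of the 38 Hox regions, and by the same rule 11.4% and 13.6% of all 443327 regions.

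The partners and regulators of Hox genes had regions in nearly all libraries. All 9 cofactor genes of the Pbx, Meis and Pknox families, whose proteins bind DNA together with Hox proteins, had regions in all 8 libraries. Pknox1 had a median −log10 p of 419. All 15 Polycomb genes did too, with Ezh2, the enzyme of Polycomb complex PRC2, at 369 and Rnf2, the ubiquitin ligase of PRC1, at 320. So did all 6 Trithorax genes, which keep Hox genes active, with Ash2l at 257 and Kmt2b at 179. Of 6 retinoic acid genes 5 had regions in all 8 libraries, led by the receptors Rarb (115) and Rarg (69.1), and Cyp26a1 had one in 7. All 10 flanking genes found by symbol, of 11 listed, had regions in all 8, with Hibadh at 469.

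Regions were fewer at relatives of the Hox genes. Of 6 ParaHox and caudal genes, all homeobox genes, 2 had regions in all 8 libraries (Gsx1, median 22.7, and Cdx1, 17.5), and Pdx1 and Cdx4 had none. Evx2, next to Hoxd13, had a region in all 8 libraries (median 7.81), and Evx1, beyond Hoxa13, in 4.

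These lists also separated by group in places. Polycomb genes were stronger in KO in 4 of 15 and in WT in 4, in PLX chow in 1 and in control chow in 2, and in the dLGN in 2 and in sections in 9. Trithorax genes were stronger in KO in 4 of 6 and in WT in 0, and in sections in 4 and in the dLGN in 0, with none separated by chow. Cofactor genes were stronger in KO in 0 of 9 and in WT in 1, by chow in 1 each, and in the dLGN in 1 and sections in 2. The shares of all genes called were 23.1% in KO, 19.3% in WT, 9.87% in PLX chow, 19.3% in control chow, 13.1% in the dLGN and 26.8% in sections. Each count rests on few genes, and nothing particular to a list was tested.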

How the data were processed

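Processed peak lists of 8 ATAC-seq libraries were used, 1 list per library. Per the deposited pipeline instructions, the authors ran the ENCODE ATAC-seq pipeline on mm10 with paired-end reads, multimapping set to 0 and a p threshold of 0.01. The list names add trimming, removal of duplicates and mitochondrial reads and a limit of 300000 peaks, which the KO lists nearly reach. deepTools 3.5.0 is named in the submitters' processing notes; neither aligner nor peak caller is named in the labels or the instructions. Each deposited peak has a score (10 times −log10 p, with an upper limit), a fold enrichment (a ratio), −log10 p, −log10 q and a summit position.

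Here, overlapping peaks were merged (Python 3.11.15, pandas 2.3.3, numpy 2.4.6, matplotlib 3.10.9), assigned to gene bodies ± 2 kb by an overlap of 1 bp and ranked by −log10 p in lists of 192168 regions. Genes without a region ranked last. Regions overlapping in any library were joined for the comparison by region. The exact permutation test of mean ranks was adjusted over all genes by the Benjamini-Hochberg method. The ranking was run on simulated data of 4 against 4 libraries with a value for every gene. This does not cover the comparisons of 2 against 2 libraries or genes without a region. Alternatives changed the window, list length, ranking, overlap, q limit, measure, replicate block and libraries. Described in full were, per cluster, the 3 members with the highest median −log10 p, the members called in a comparison (up to 4 per direction) and, per other list, up to 2 genes with the highest median. Members and lists were chosen with earlier results of these data known. 1 further Hox gene and a few genes of the other lists are not reported here. Labels give the groups. The exact permutation p-values rest on differences between libraries, which may be technical. The authors' −log10 p belongs to a peak within 1 library.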

Additional observations from a re-analysis of the deposited data

Results flagged for a closer look

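In 26 groups of 4 libraries (the 4 dLGN or 4 section libraries) each Hox value was checked for a library far from the other 3, which chance gives in about 1 in 20 groups. 5 were found. In 3 of them the value is a count and the other 3 libraries tie, so the rate of 1 in 20 does not apply to these. In the dLGN, Hoxd1 had a −log10 p of 65.9 in control chow 1 against 37.1 to 41.4 in the others, and Hoxd3 had 51.9 in control chow 2 against 29.7 to 33.3. The Hoxb cluster held 4 regions in control chow 1 and 2 in each other dLGN library, and 3 in KO 1 and 2 in each other section library. The Hoxc cluster held 1 region in WT 2 and 2 in each other section library.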

How the results depend on the processing

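Shares in brackets are those of all genes called in each direction, in the order the groups are named. Between KO and WT, 7 of 18 Hox genes tested were called (23.1% and 19.3%). This became 1 of 10 with gene bodies not extended (22.5% and 19.6%) and 2 of 7 with 50000 regions per list (22.4% and 19.7%). It was 1 of 7 by the number of regions among the 50000 strongest (6% and 4.82%). By the number of deposited regions it was 3 of 20 (20.2% and 4.81%). Ranked by fold it was again 7 of 18, beside other shares of all genes (14.2% and 27.9%). Leaving out a replicate gave 9 to 15, under a rule that is easier to meet (34.4% to 43.1% and 32% to 34.5%). Between PLX chow and control chow, 4 of 20 were called (9.87% and 19.3%). This became 1 of 5 with 50000 regions (9.3% and 19.5%) and 1 of 14 with 100000 (9.68% and 19.4%). It was 0 of 5 by the number among the 50000 strongest (2.41% and 2.6%). Leaving out a replicate gave 8 to 12 (21.6% to 36.5% and 30.5% to 51.8%). Between dLGN and sections, 0 of 20 were called (13.1% and 26.8%). This became 9 of 20 with only WT and control chow libraries (23.1% and 41.5%). By regions, an alternative chosen after seeing the data, it was 2 of 35 (12.2% and 9.92% of all regions). Leaving out a replicate gave 0 to 3 (14.2% to 15.9% and 27.7% to 32.2%). The Hox regions per library, 15.4, became 9.75 without extension, 3.5 with the 50000 strongest, and 14.1 to 16 leaving out a library. Over all pairs of a called gene and an alternative, 105 kept the call and 37 lost it. Hoxd3 between KO and WT reversed by the number of deposited regions, at −1 region. Leaving out a library or using the replicate block cannot undo a call between 2 and 2 libraries. The kept calls under those alternatives are therefore fixed by the rule and say nothing about stability. Fewer regions or shorter windows leave fewer genes with a value.

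Replicate numbers shared by groups are only numbers: deviations of same-numbered libraries correlated at 0.143 (KO, WT) and −0.0374 (chow) over 15946 genes. With the replicate block, 9 of 18 Hox genes were called between KO and WT (all genes 32.1% stronger in KO and 26.9% in WT). By chow 9 of 20 were called (all genes 15.9% stronger in PLX chow and 28.2% in control chow). Between tissues 1 of 20 was called, Hoxa13, stronger in sections (all genes 14.8% stronger in the dLGN and 30.6% in sections). Read depth is unknown, so a gene without a region may have signal below the authors' threshold.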
